A study of Mus musculus with 6 samples.

Results

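The genes described are 10 of polyamine metabolism, found by symbol among 46095 rows of a raw count table from mouse kidney. They are Odc1, Amd1, Srm, Sms, Sat1, Smox, Paox, Azin1, Oaz1 and Oaz2, and all 10 passed the filter on low counts that left 15367 genes for testing. RNA was sequenced from 3 kidney samples labelled DHT (dihydrotestosterone, a potent androgen) and 3 labelled control. All 6 carry the strain label PCOS mouse on a C57BL/6 background, the controls included, and the groups here follow the treatment label. DHT exposure is used in mice to model polycystic ovary syndrome, and the study asked about kidney injury in that model. The labels give no dose, duration, age or sex. Every library held Xist reads, 6882 to 14418 counts in DHT and 12296 to 15136 in control, and 0 counts of 4 Y-linked genes. Nothing in the labels names separate animals, so the p-values below measure only how far these samples spread, which may be technical.

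Polyamines (putrescine, spermidine and spermine) are small charged molecules that bind nucleic acids and that growing cells need for translation. Ornithine decarboxylase, the product of Odc1, makes putrescine from ornithine and is the most tightly controlled step of the pathway. Its protein turns over fast, because antizymes bind it and hand it to the proteasome. In mouse kidney ornithine decarboxylase is a classic androgen-induced enzyme of the proximal tubule.

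The promoter of Odc1 is shown because Odc1 is the member with by far the widest difference between libraries. The window runs from 250 bases before to 50 bases after the start site (RefSeq, GRCm38.p6, chr12:17544623-17544922, plus strand). Capitals mark the GC box GGGCGG or its reverse complement CCGCCC.
Odc1: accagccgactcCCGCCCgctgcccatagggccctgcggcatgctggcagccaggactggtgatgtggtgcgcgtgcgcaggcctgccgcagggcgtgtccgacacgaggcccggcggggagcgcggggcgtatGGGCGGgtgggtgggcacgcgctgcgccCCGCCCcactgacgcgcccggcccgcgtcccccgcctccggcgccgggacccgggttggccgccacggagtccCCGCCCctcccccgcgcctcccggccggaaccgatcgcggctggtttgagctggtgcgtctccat
Its GC content was 78%, against a median of 52.7% over 32851 RefSeq promoter windows of the same 300 bases. The 4 GC boxes begin at positions -238, -116, -88 and -15 from the start site, and 35.7% of all windows hold at least 1 on either strand. The letters of the androgen response hexamer, TGTTCT, were not in this window on either strand, and 19.0% of all windows hold them. Those of the E-box to which Myc and Max bind, CACGTG, were absent from it too and are held by 7.15% of all windows. Such matches describe letters and say nothing of binding. Of the 10 members, 8 had a window in the table. The androgen response hexamer stood once, on either strand, in the window of Sat1 at -191 and in that of Oaz2 at -238. The E-box stood once among the members, in a window of Sms at -196. Bases outside the windows were not searched.

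The antizyme genes are shown at the site where their reading frame shifts. Ribosomes must slip forward by a base at a stop codon to make full-length antizyme, and polyamines raise the share that do, a step that RNA counts do not measure. Capitals mark the stop codon, and each stretch of 30 bases comes from a GENCODE M21 transcript on GRCm38, plus strand, chromosome 10 for Oaz1 and chromosome 9 for Oaz2.
Oaz1: cggtggtgctccTGAtgtccctcacccacc
Oaz2: ctgtggtgctccTGAtgcccctcacccact

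Total counts were 15054763 to 18624947 in DHT libraries and 15994714 to 19331942 in control libraries. DHT replicate 2 stood apart from the other DHT libraries. Of 8 macrophage and monocyte markers, 7 were highest there, and their summed level was 103 to 372 counts per 1000000 (CPM, TMM-scaled) in DHT libraries and 105 to 229 CPM in controls. Of 6 markers of the proximal straight segment, 1 was called by edgeR (Slc7a13, higher), and their sum was 5765, 1345 and 5144 CPM in DHT replicates 1, 2 and 3 against 602 to 1499 CPM in controls. The 8 general proximal tubule markers summed to 8973 to 11632 CPM in DHT libraries and 9739 to 13435 CPM in controls, with 0 called by edgeR, and none of these 3 lists had a marker at 0. Gatm, described below among the genes of ornithine and arginine, is also on the proximal tubule list. Endothelial markers, 5 of 6 highest in DHT replicate 2 and 1 called (Ehd3, higher), summed to 341 to 607 CPM in DHT libraries and 338 to 395 CPM in controls. The 6 markers of the loop of Henle and distal tubule summed to 6209 to 7203 CPM in DHT libraries, below all controls at 7929 to 12849 CPM, with 0 called by edgeR. Podocyte markers (4 of 5) and red blood cell markers (5 of 6) were also mostly highest in DHT replicate 2. So were lymphocyte markers (4 of 6), at a sum of at most 7.75 CPM. Collecting duct markers (2 of 7) and fat cell markers (1 of 5) mostly were not. Slc4a1 is on both the red blood cell and the collecting duct list. Podocyte sums were 542 to 809 CPM in DHT libraries against 573 to 703 CPM in controls, and red blood cell sums 59.0 to 125 CPM in DHT libraries against 89.7 to 160 CPM in controls. Of 6 adrenal cortex markers 3 had 0 counts in every library (Cyp11b1, Cyp11b2 and Cyp21a1), and the list summed to 0.474 to 2.38 CPM in DHT libraries, below all controls at 2.52 to 8.79 CPM. The part of these markers in the results below was not tested. In whole kidney, fewer cells of a type and less RNA per cell cannot be told apart.

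Odc1 (chr12:17544794-17551505, plus strand, GRCm38) had 2539, 457 and 1726 CPM in DHT replicates 1, 2 and 3, against 413, 324 and 309 CPM in control replicates 1, 2 and 3. DHT replicates 1 and 3 stood at 7.28 and 4.95 times the control mean and DHT replicate 2 at 1.31 times, next to the highest control. The groups did not overlap. The means were 1574 ± 1049 CPM in DHT libraries and 349 ± 56.4 CPM in controls (SD, n = 3 each). The log2 fold change of Odc1 was 2.17 ± 0.57 (SE), which did not pass the threshold of 0.05 (edgeR quasi-likelihood test, Benjamini-Hochberg adjusted p = 0.0841, unadjusted p = 0.0066). Without DHT replicate 2, the DHT library with the least Odc1, it passed at a log2 fold change of 2.60 ± 0.22 (edgeR adjusted p = 0.000993). Odc1 also passed with DESeq2 on all libraries (adjusted p = 0.0162). It did not pass with limma-voom (adjusted p = 0.134) or with no low-count filter (edgeR adjusted p = 0.244). Leaving out any other single library gave edgeR adjusted p values of 0.155 to 0.223. The summed level of the straight segment markers had the same order as Odc1 over the DHT libraries. In the controls that sum was lowest in control replicate 1 (602 CPM), the control with the highest Odc1. The part of these markers in the difference was not tested.

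In raw terms Odc1 took 40419, 7295 and 29089 counts in DHT replicates 1, 2 and 3 and 6723, 6244 and 6251 in the controls. That was 0.236%, 0.0485% and 0.156% of each DHT library, against 0.0420%, 0.0323% and 0.0339% of each control library. By counts Odc1 ranked as gene 23 in DHT replicate 1, 214 in DHT replicate 2 and 45 in DHT replicate 3, and between 239 and 365 in the controls. Its log2 fold change ranked 72 among the 15367 genes tested, and 34 of those 72 were called.

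**Figure D1:**
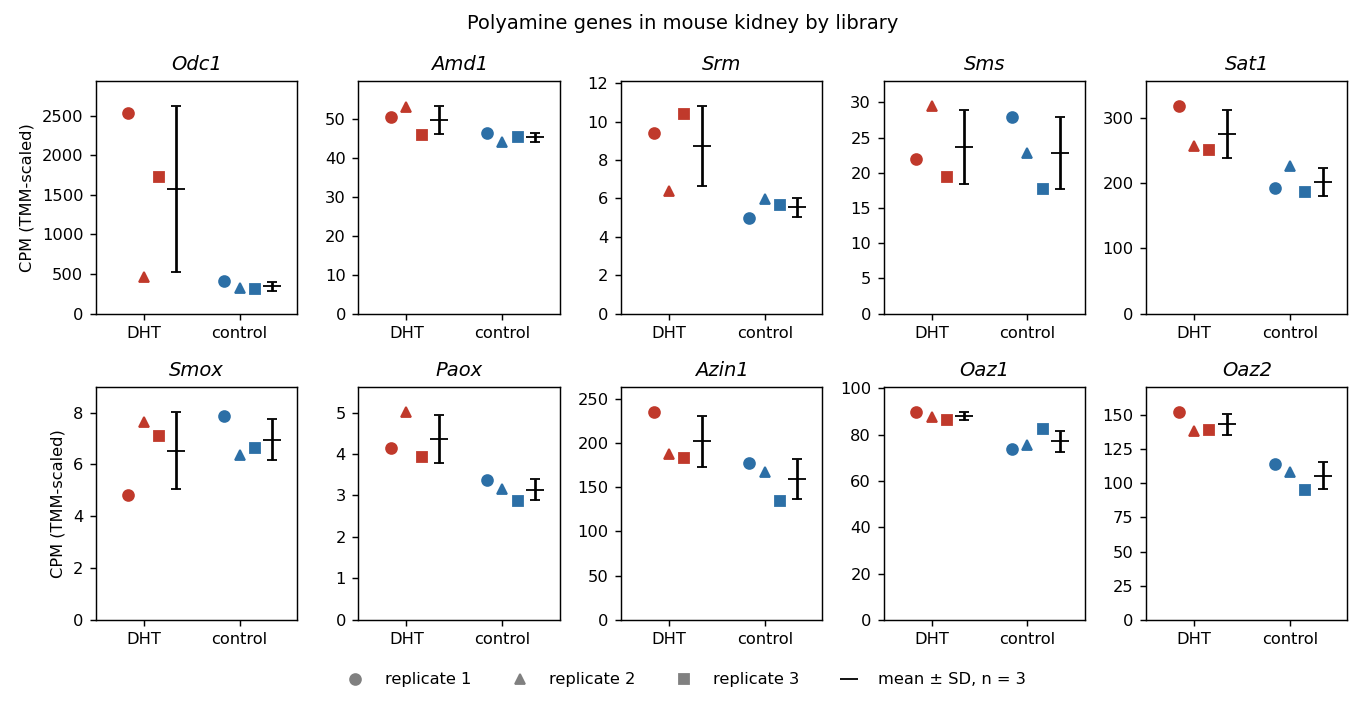
Level of each polyamine gene in every library, in TMM-scaled CPM on axes that start at 0, for 3 DHT and 3 control libraries, with the mean ± SD to the right of each group. Odc1 reaches 2539 CPM in DHT replicate 1, 457 CPM in DHT replicate 2 and 1726 CPM in DHT replicate 3, above controls at 309 to 413 CPM.

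Odc1 has many processed pseudogenes, and its reads can be shared with them. A set of 16 transcripts of other genes matched at least 25% of the Odc1 transcript at 85% identity or more, and together they held 3.0% as many counts as Odc1. The pseudogene Gm7993, 95.3% identical, had 504, 97 and 389 counts in DHT replicates 1, 2 and 3 and 105, 118 and 64 in the controls. As a share of the Odc1 count that is 1.25% to 1.34% in DHT libraries and 1.02% to 1.89% in control libraries, so the DHT shares lay inside the control range. With all copies added, Odc1 stood at 2595, 476 and 1765 CPM in DHT libraries and 436, 343 and 324 CPM in controls, a ratio of means of 4.39 against 4.51 without them.

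No member was called by edgeR over all genes, where 2.84% of tested genes were called, 1.38% as higher and 1.46% as lower. At an unadjusted p under 0.05, 4 of 10 members were higher in DHT (Odc1, Srm, Sat1 and Oaz2) and 0 lower, beside 12% of all tested genes in each direction. DESeq2 called 3 higher, Odc1, Sat1 and Oaz2, beside 5.67% of genes called higher and 10.8% in either direction. limma-voom called 0, beside 2.08% in either direction, 0.963% as higher and 1.11% as lower. Without DHT replicate 2, Odc1 was the single member called, beside 4.72% of genes called higher and 7.76% in either direction. In 7 of 10 members all DHT libraries lay above all controls, and in 0 all lay below, a state found in 14.8% of tested genes for higher and 15% for lower. The members' median log2 fold change was 0.39, against 0.00 over all tested genes. By library the median over the members was 0.42, 0.29 and 0.22 log2 above the control mean in DHT replicates 1, 2 and 3, while all tested genes had medians of -0.03, -0.01 and -0.03 (on the log2 scale of CPM + 1).

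Among the enzymes after Odc1 in synthesis, Srm resembled it most over the libraries. Srm (chr4:148591503-148594993, plus strand), which joins an aminopropyl group to putrescine to give spermidine, had 9.42, 6.39 and 10.4 CPM in DHT libraries and 4.98, 5.97 and 5.64 CPM in controls. The groups lay apart, and DHT replicate 2 was again the lowest DHT library, close to the controls. Srm had a log2 fold change of 0.66 ± 0.24 (edgeR adjusted p = 0.142), from 102 to 175 counts per DHT library and 81 to 115 per control library. Without DHT replicate 2 it was 0.83 ± 0.21 (adjusted p = 0.0527).

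Amd1 (chr10:40287458-40302186, minus strand) encodes S-adenosylmethionine decarboxylase, which makes the aminopropyl donor. Amd1 had 50.4, 52.9 and 45.9 CPM in DHT libraries and 46.5, 44.1 and 45.2 CPM in controls. The groups overlapped, with DHT replicate 3 inside the control range, and the log2 fold change was 0.14 ± 0.11 (edgeR adjusted p = 0.466). Amd1 is uncertain as a single gene, since the Amd2 transcript is 99.6% identical over 99.8% of it and pseudogenes match 31.4% of it. Amd2 had 4.21, 5.14 and 3.14 CPM in DHT libraries and 5.35, 5.45 and 5.54 CPM in controls. Its groups lay apart in the lower direction, with a log2 fold change of -0.39 ± 0.25 (edgeR adjusted p = 0.381). With all copies added Amd1 ranged from 55.6 to 64.4 CPM in DHT libraries and from 56.0 to 58.8 CPM in controls.

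Sms (chrX:157443855-157492287, minus strand), which makes spermine from spermidine, had 21.9, 29.5 and 19.5 CPM in DHT libraries and 27.9, 22.8 and 17.8 CPM in controls. The groups overlapped widely, and DHT replicate 2 was the highest of all 6 libraries. The log2 fold change was 0.05 ± 0.21 (edgeR adjusted p = 0.898), and it was below 0 with scaling by total counts (-0.028), without DHT replicate 2 (-0.15) and without control replicate 3 (-0.11).

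**Figure D2:**
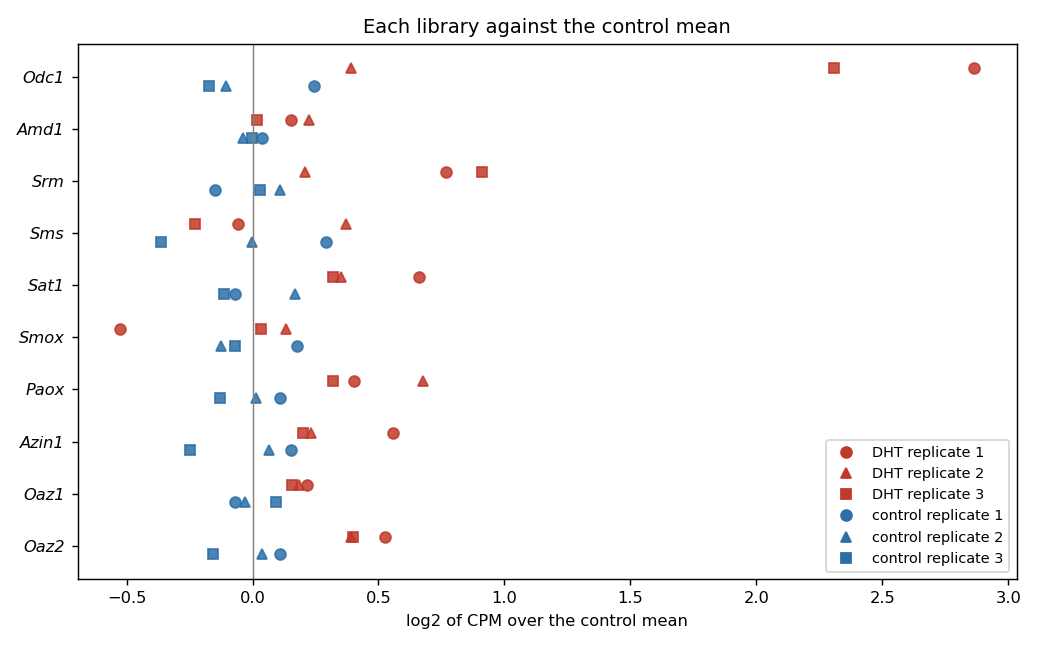
Each library's level relative to the control mean (log2 of CPM over the mean of the 3 controls), by gene, with DHT libraries above control libraries in each row and a marker shape per replicate number. Odc1 reaches 2.86, 0.39 and 2.31 in DHT replicates 1, 2 and 3, while no DHT library of the other members goes beyond 0.91.

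The catabolic genes break polyamines down by acetylation and oxidation. Sat1 (chrX:155213132-155216449, minus strand), the acetyltransferase that marks spermidine and spermine for export or oxidation, had 318, 256 and 251 CPM in DHT libraries and 192, 226 and 186 CPM in controls. All DHT libraries lay above the highest control, control replicate 2. The means were 275 ± 37.2 CPM in DHT libraries and 201 ± 21.5 CPM in controls, and the log2 fold change was 0.45 ± 0.15 (edgeR adjusted p = 0.118). DESeq2 called Sat1 (adjusted p = 0.0409).

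Paox (chr7:140115799-140137224, plus strand) encodes the peroxisomal oxidase of acetylated polyamines. It had 4.15, 5.01 and 3.92 CPM in DHT libraries and 3.38, 3.16 and 2.87 CPM in controls, with the groups apart and DHT replicate 2 the highest. Its log2 fold change was 0.47 ± 0.25 (edgeR adjusted p = 0.285), from 66 to 80 counts per DHT library and 55 to 61 per control library. Paox is uncertain: the pseudogene Gm19680 is 99.9% identical over 29.2% of its transcript, and 142 exonic bases overlap the opposite-strand gene Echs1. Gm19680 had 29, 19 and 36 counts in DHT and 12, 8 and 12 in control. With Gm19680 added, Paox stood at 5.97, 6.20 and 6.05 CPM in DHT libraries and 4.12, 3.58 and 3.46 CPM in controls.

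Smox (chr2:131491496-131525922, plus strand), the spermine oxidase, had 4.84, 7.64 and 7.12 CPM in DHT libraries and 7.87, 6.38 and 6.63 CPM in controls. The groups overlapped, and DHT replicate 1 was the lowest library. Its fitted difference, the single negative value among the members, was -0.09 ± 0.24 (edgeR adjusted p = 0.844). It was 0.088 without DHT replicate 1 and 0.000346 without control replicate 1.

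The genes that regulate ornithine decarboxylase protein were higher in all DHT libraries than in all controls, each by less than 1.5 times in the group means, and none passed the edgeR test. Oaz2 (chr9:65668001-65690300, plus strand), an antizyme, had 152, 139 and 139 CPM in DHT libraries and 114, 108 and 94.8 CPM in controls. Here DHT replicate 2 did not stand apart: it was level with DHT replicate 3 and clear of the controls. The log2 fold change of Oaz2 was 0.44 ± 0.12 (edgeR adjusted p = 0.0753, the lowest among the members), and DESeq2 called it (adjusted p = 0.0164).

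Oaz1 (chr10:80826656-80829290, plus strand), the main antizyme, had 89.7, 87.8 and 86.1 CPM in DHT libraries and 73.6, 75.6 and 82.3 CPM in controls. The 3 DHT libraries lay close together and just above control replicate 3. Oaz1 had a log2 fold change of 0.19 ± 0.10 (edgeR adjusted p = 0.299). The pseudogene Oaz1-ps is 99.3% identical over 63.6% of the Oaz1 transcript and held 96 counts in all, against 8600 for Oaz1.

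Azin1 (chr15:38487427-38519266, minus strand) encodes antizyme inhibitor, a relative of ornithine decarboxylase with no enzyme activity that binds antizyme and so spares the enzyme. Azin1 had 235, 187 and 183 CPM in DHT libraries and 177, 167 and 134 CPM in controls. The groups lay apart by a narrow margin, between DHT replicate 3 and control replicate 1. Azin1 had a log2 fold change of 0.34 ± 0.16 (edgeR adjusted p = 0.228). An antisense gene, Gm49077, shares 358 exonic bases with Azin1, and as strand use is not given, their reads cannot be told apart.

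Levels can be compared between genes only per length, here as CPM per kilobase of the union of exons. On this scale Odc1 was the highest member in both groups, at 462 ± 308 in DHT and 102 ± 16.6 in control (SD, n = 3 each). Sat1 followed, at 99.1 ± 13.4 in DHT and 72.4 ± 7.76 in control. The regulators of ornithine decarboxylase came next: Oaz2 averaged 48.0 in DHT and 35.3 in control, Oaz1 34.4 in DHT and 30.2 in control, and Azin1 32.2 in DHT and 25.5 in control. Amd1 averaged 14.0 in DHT and 12.8 in control. The other synthesis enzymes were lower, Srm at 5.46 in DHT and 3.46 in control and Sms at 3.93 in DHT and 3.80 in control. The oxidases were lowest, Smox at 1.68 in DHT and 1.79 in control and Paox at 0.888 in DHT and 0.640 in control. The order was the same in both groups except that Srm stood above Sms in DHT and below it in control. Neighbours whose ranges overlapped were Oaz1 with Azin1 and Srm with Sms in DHT, and Oaz2 with Oaz1 and Sms with Srm in control. Reads that fit several places may have been dropped, which would lower members with near-identical copies on this scale. The union holds the bases of every annotated transcript and can be longer than the transcript expressed. For Oaz1 it has 2558 bases, while 685 bases made up 63.6% of the transcript compared with Oaz1-ps. The order between members, Odc1 above Sat1 included, may therefore differ with another length.

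**Figure D3:**
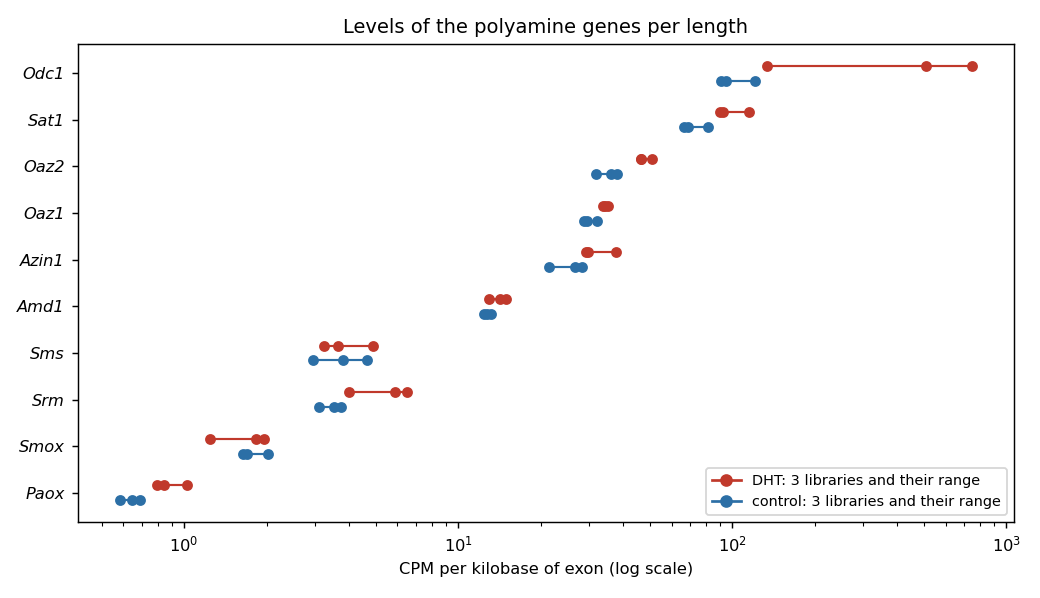
Level of each member in CPM per kilobase of exon on a log axis, ordered by the control mean, with 3 points and their range per group and DHT above control in each row. Odc1 has the widest range, 134 to 746 in DHT against 90.8 to 121 in control.

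Ratios of Odc1 to its regulators were taken library by library. The size of these ratios, and of the share below, depends on the lengths used, which were the same in every library. The level of Odc1 per kilobase was 8.67, 1.66 and 6.32 times the sum of Oaz1 and Oaz2 in DHT replicates 1, 2 and 3, against 1.82, 1.45 and 1.42 times in the controls. Relative to Azin1 it was 19.9, 4.49 and 17.3 times in DHT and 4.29, 3.57 and 4.24 times in control. Odc1 made up 73.9%, 36.9% and 69.2% of the summed level of the 10 members in DHT replicates 1, 2 and 3, and 39.3%, 32.7% and 34.3% in the controls. DHT replicate 2 lay within the control range for the antizyme ratio and for this share, and just above it for the Azin1 ratio.

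Over the 6 libraries, genes with a pattern very like that of Odc1 in log2(CPM + 1) were Atrnl1, Prkaca, Papss1, Rad21 and Galnt1, out of 9649 genes that averaged 10 CPM or more. Pearson's r ran from 0.993 for Galnt1 to 0.998 for Atrnl1, given as a description, since the genes were chosen for this likeness. Galnt1, which starts mucin-type O-glycosylation, had 316, 125 and 233 CPM in DHT libraries and 120, 112 and 96 CPM in controls. Papss1, which makes the sulfate donor of sulfotransferases, had 226, 115 and 198 CPM in DHT libraries and 113, 104 and 110 CPM in controls. Prkaca, a catalytic subunit of protein kinase A, had 93.2, 80.6 and 91.6 CPM in DHT libraries and 80.5, 78.2 and 77.9 CPM in controls, so its likeness is in shape and not in size. In all 5 genes DHT replicates 1 and 3 were the highest libraries and DHT replicate 2 lay near the controls. Among the members, r with Odc1 was 0.93 for Srm, 0.83 for Oaz2, 0.81 for Sat1, 0.78 for Azin1, 0.67 for Oaz1, 0.47 for Paox, 0.33 for Amd1, -0.23 for Sms and -0.57 for Smox.

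**Figure D4:**
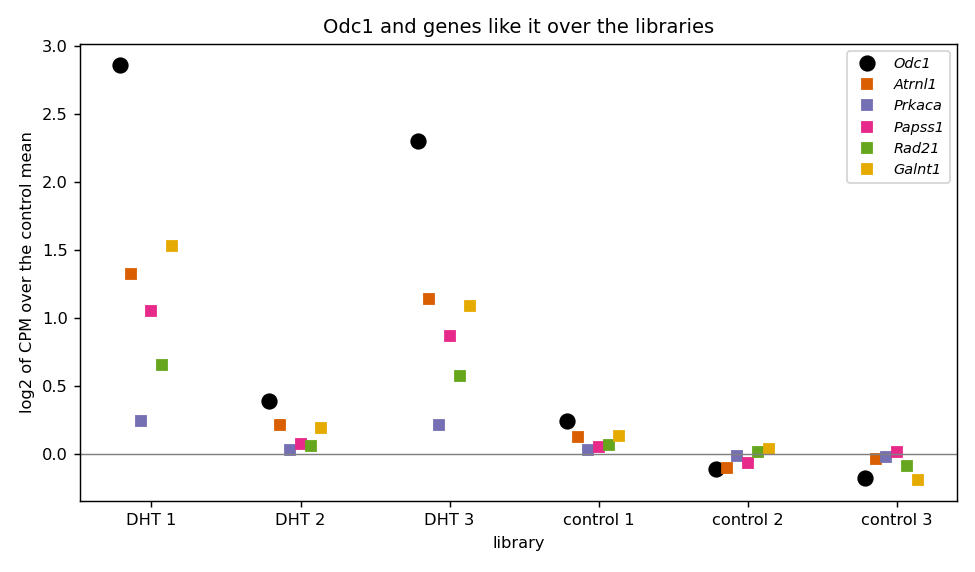
Odc1 and 5 genes with a like pattern, as log2 of CPM over the control mean in each of the 3 DHT and 3 control libraries. All 6 genes are highest in DHT replicates 1 and 3; Odc1 spans the most, and Prkaca the least at 0.24 in DHT replicate 1.

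Other genes of the pathway were taken from 7 lists of 49 genes, of which 41 were tested. edgeR called 0 of the 41, beside 2.84% of all tested genes. At an unadjusted p under 0.05, 7 were higher and 7 lower, beside 12% of all tested genes in each direction. In 6 all DHT libraries lay above the controls and in 7 all lay below, beside 14.8% and 15% of all tested genes. DESeq2 called 4 higher (Ahcy, Aldh9a1, Slc22a2 and Mlx) and 3 lower (Gatm, Oat and Slc3a2), beside 5.67% and 5.18% of genes. limma-voom called 0 in either direction. Without DHT replicate 2 edgeR called 3 higher and 3 lower, beside 4.72% and 3.04%.

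Of 8 tested genes that supply or compete for ornithine and arginine, edgeR and limma-voom called 0. At an unadjusted p under 0.05, 0 were higher and 3 lower, beside 12% of all tested genes in each direction. Ass1 and Asl, which make arginine from citrulline, had log2 fold changes on the other side of 0, at 0.37 ± 0.21 and 0.25 ± 0.21 (edgeR adjusted p = 0.315 and 0.512). Gatm, which moves the amidino group of arginine to glycine for creatine synthesis and releases ornithine, had 350, 656 and 583 CPM in DHT libraries and 1916, 1377 and 906 CPM in controls. The groups did not overlap, and the log2 fold change was -1.40 ± 0.32 (edgeR adjusted p = 0.0589). Oat, which turns ornithine into glutamate semialdehyde and so away from putrescine, had 220, 345 and 305 CPM in DHT libraries and 481, 462 and 457 CPM in controls. The controls were tight, every DHT library lay below them, and the log2 fold change was -0.68 ± 0.18 (edgeR adjusted p = 0.0712). Both passed without DHT replicate 2, the DHT library nearest the controls, Gatm at -1.59 (edgeR adjusted p = 0.0433) and Oat at -0.84 (adjusted p = 0.0296). Leaving out any other single library gave edgeR adjusted p values of 0.0649 to 0.175 for Gatm and 0.129 to 0.188 for Oat. DESeq2 on all libraries called both. Arg2, the mitochondrial arginase that makes ornithine, had 5.21, 6.76 and 12.1 CPM in DHT libraries and 6.46, 49.7 and 33.0 CPM in controls, with control replicate 1 inside the DHT range. Its log2 fold change was -1.89 ± 0.73 (edgeR adjusted p = 0.189), and without control replicate 1 it passed at -2.37 (adjusted p = 0.0316). Without control replicate 2, the highest library, Arg2 was at -1.30 (adjusted p = 0.394), and with limma-voom on all libraries at -1.59 (adjusted p = 0.392).

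Of 8 tested genes of S-adenosylmethionine and methionine salvage, 2 were higher at an unadjusted p under 0.05 and 0 lower. Over all tested genes the share was 12% in each direction. Ahcy, which removes S-adenosylhomocysteine, averaged 119 ± 25.5 CPM in DHT libraries and 76.7 ± 14.2 CPM in controls (log2 fold change 0.63 ± 0.19, edgeR adjusted p = 0.103), and DHT replicate 2 overlapped the controls. Without that library Ahcy passed (0.79, edgeR adjusted p = 0.028). Without any other single library it did not (edgeR adjusted p = 0.151 to 0.272). Mat2b, the regulatory subunit of methionine adenosyltransferase, averaged 86.7 ± 7.46 CPM in DHT libraries and 68.5 ± 4.11 CPM in controls, with the groups apart (adjusted p = 0.12). Adi1, of the salvage path, averaged 65.0 ± 2.40 CPM in DHT libraries and 57.5 ± 6.06 CPM in controls (adjusted p = 0.378).

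Of 4 tested genes of other acetylation, deacetylation and amine oxidation, 1 was higher and 1 lower at an unadjusted p under 0.05. The share over all tested genes was 12% in each direction. Aldh9a1, an aldehyde dehydrogenase that oxidises the aldehyde formed from putrescine, had 525, 507 and 564 CPM in DHT libraries and 348, 399 and 328 CPM in controls. All DHT libraries, replicate 2 included, lay well above the controls (log2 fold change 0.57 ± 0.14, edgeR adjusted p = 0.0654, and 0.000868 with DESeq2). Aoc1, the diamine oxidase, had 1.01, 1.69 and 1.66 CPM in DHT libraries and 1.97, 2.08 and 5.89 CPM in controls (log2 fold change -1.19 ± 0.49). Control replicate 3 was by far the highest: without it the log2 fold change of Aoc1 was -0.48 (edgeR unadjusted p = 0.274). Without DHT replicate 1, 2 or 3 its edgeR unadjusted p was 0.12, 0.0532 and 0.0759. The place of Aoc1 in the count of lower genes is thus lost if any of these libraries is left out. Hdac10, a deacetylase of acetylspermidine, averaged 13.6 ± 1.51 CPM in DHT libraries and 16.7 ± 1.71 CPM in controls. Neither Aoc1 nor Hdac10 passed with all libraries (edgeR adjusted p = 0.188 and 0.285).

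Of 8 tested transport genes, 2 were higher and 3 lower at an unadjusted p under 0.05, beside 12% of all tested genes each way. Slc22a2, an organic cation transporter of the basolateral tubule membrane, had 416, 205 and 448 CPM in DHT libraries and 162, 212 and 170 CPM in controls. DHT replicate 2 was the single DHT library within the control range. The log2 fold change of Slc22a2 was 0.98 ± 0.28 (edgeR adjusted p = 0.0927), and 1.25 without DHT replicate 2, where it passed (0.00438). Leaving out any other single library gave Slc22a2 edgeR adjusted p values of 0.18 to 0.263. Slc3a2, the heavy chain of amino acid exchangers, averaged 192 ± 45.5 CPM in DHT libraries and 308 ± 56.7 CPM in controls with the groups apart (-0.68 ± 0.21, adjusted p = 0.105). Atp13a2, a polyamine exporter of lysosomes in human cells, averaged 22.8 ± 3.01 CPM in DHT libraries and 30.3 ± 4.37 CPM in controls, also apart (-0.41 ± 0.15, adjusted p = 0.149). Atp13a4, a relative of it, had 5, 40 and 16 counts in DHT libraries and 86, 75 and 54 in controls. Its log2 fold change was -1.64 ± 0.62 with all libraries (edgeR adjusted p = 0.159, and 0.0614 with DESeq2). Without DHT replicate 2, the DHT library with the most Atp13a4 counts, it was -2.62 ± 0.54 and passed (edgeR adjusted p = 0.0275).

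Spermidine is the donor for hypusine, a residue of the translation factor eIF5A. At an unadjusted p under 0.05, 12% of all tested genes were higher and 12% lower. Of 4 tested genes of this modification, 1 was higher and 0 lower at that threshold. It was Dohh, which completes hypusine and averaged 30.6 ± 5.59 CPM in DHT libraries and 21.7 ± 2.55 CPM in controls (log2 fold change 0.50 ± 0.16, edgeR adjusted p = 0.115). Dhps, which starts it, averaged 13.6 ± 0.613 CPM in DHT libraries and 11 ± 0.959 CPM in controls (adjusted p = 0.257). Both had groups apart. Eif5a averaged 2.76 ± 0.654 CPM in DHT libraries and 2.01 ± 0.388 CPM in controls (adjusted p = 0.418), and as it has many processed pseudogenes its count is uncertain.

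Odc1 is a textbook target of Myc, and 8 genes of the Myc and Max network were tested. At an unadjusted p under 0.05, 1 was higher and 0 lower, beside 12% of all tested genes in each direction. The higher gene was Mlx, a Max-like protein, at 70.4, 45.0 and 61.3 CPM in DHT libraries and 38.7, 42.6 and 38.5 CPM in controls (0.56 ± 0.16, edgeR adjusted p = 0.09). Without DHT replicate 2, the DHT library with the least Mlx, Mlx passed (0.71, edgeR adjusted p = 0.0157). Without any other single library it did not (edgeR adjusted p = 0.166 to 0.242). Myc had 3.52, 7.64 and 3.74 CPM in DHT libraries and 5.29, 7.06 and 8.66 CPM in controls. It was lowest in DHT replicates 1 and 3, where Odc1 was highest, at 56 and 63 counts. The groups overlapped, and the log2 fold change of Myc was -0.50 ± 0.35 (edgeR adjusted p = 0.409). A link between Myc and Odc1 was not tested. Of the repressor partners of Max, Mxi1 averaged 59.2 ± 10.1 CPM in DHT libraries and 48.0 ± 5.41 CPM in controls (adjusted p = 0.265). Mxd1 averaged 17.8 ± 1.22 CPM in DHT libraries and 21.4 ± 2.62 CPM in controls (adjusted p = 0.29). The antizyme inhibitor relative Azin2, the single tested gene of its list, averaged 1.76 ± 0.654 CPM in DHT libraries and 1.51 ± 0.277 CPM in controls (adjusted p = 0.774).

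**Figure D5:**
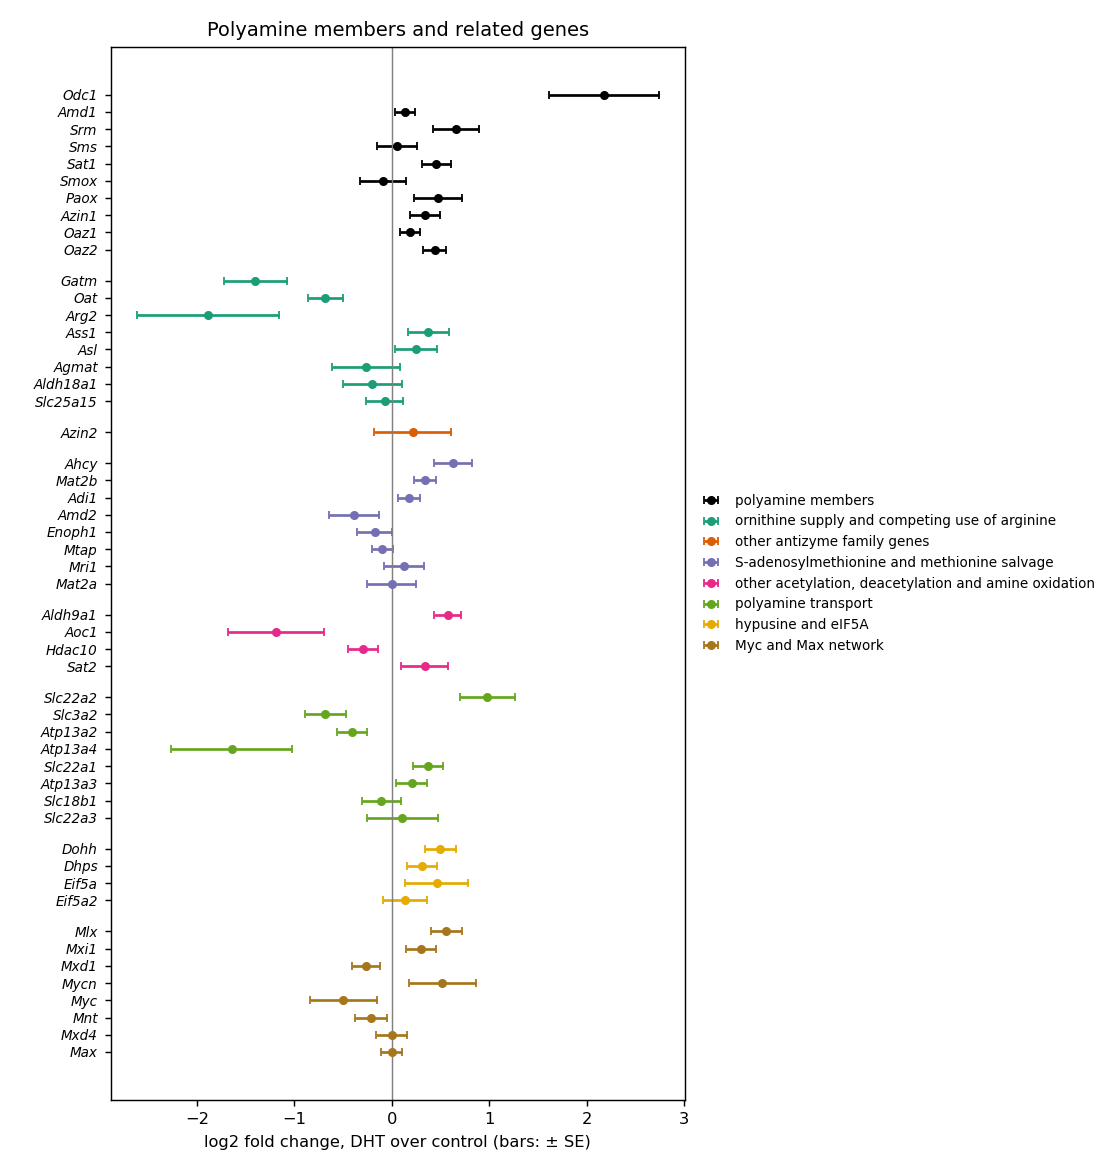
Log2 fold change (DHT over control, bars ± SE of the edgeR fit) of the 10 members and the 41 tested related genes, grouped by list. Odc1 at 2.17 is the highest value shown; Gatm at -1.40, Oat at -0.68 and Arg2 at -1.89 lie on the other side of 0.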

How the data were processed

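RNA from 3 kidney samples labelled DHT and 3 labelled control was sequenced; per the labels' protocols, Trizol was used for extraction and the libraries were of mRNA (Illumina). HISAT2 2.0 and mm10 were used, per the submitters' processing notes. The sources used here do not say how reads were counted (tool, annotation, strand, multi-mapped reads). The authors' deposited file holds raw counts per gene symbol, whole numbers without normalization, and columns were matched by sample title. Low counts limit genes with under 100 counts per library, but the spread between libraries also sets the precision. Odc1, the member with the most counts, had the largest SE of the members, 0.57 against 0.25 for Paox.

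Counts were filtered (filterByExpr, minimum 10, total 15), scaled by TMM and tested with edgeR 4.0.16 in R 4.3.3 (robust quasi-likelihood, group as single term, Benjamini-Hochberg at 0.05 over all tested genes). SE is the value that the F statistic implies. DESeq2 1.42.0, limma 3.58.1 (voom), other scalings and filters, a replicate block and leaving out each library were alternatives. Gene models are GENCODE M21 on GRCm38, the assembly of mm10; copies were found with BLAST 2.17.0+ and promoters come from RefSeq. Members and lists were chosen with earlier results of these data known. Text names all members, the 3 related genes of smallest p per list with any called, and the 6 genes most like Odc1, of which 1 is not reported here; Amd2, Ass1, Asl, Atp13a4, Myc and the pseudogenes were added after their values were seen.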

Additional observations from a re-analysis of the deposited data

How the results depend on the processing

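Over all genes 437 were called, against 852 with no low-count filter, 1634 with DESeq2, 85 with the replicate block and 0 to 1224 when a library was left out (19, 1224 and 0 without DHT replicates 1, 2 and 3, and 366, 7 and 89 without control replicates 1, 2 and 3). Members called higher numbered 3 with DESeq2 and 0 to 1 with a library left out. Related genes called higher and lower numbered 1 and 1 with no low-count filter, 4 and 3 with DESeq2, and 0 to 3 each with a library left out, where 1 lower call came without control replicate 1 (Arg2). The log2 fold change of Odc1 was 2.18 with DESeq2 and 1.65 to 2.60 with a library left out, and it stayed above 0 in all 14 alternatives. Odc1 passed the threshold only with DESeq2 and without DHT replicate 2. Sms was at -0.028 with total counts, -0.15 to 0.22 with a library left out (below 0 without DHT replicate 2 or, at -0.11, control replicate 3), and Smox at -0.23 to 0.088 (above 0 without DHT replicate 1 or, at 0.000346, control replicate 1); the cause was not tested. Of 476 values of the 34 other genes that met the naming rule, 445 kept direction and side of the threshold, 26 passed it and 5 changed sign. Total counts moved the median of all genes by -0.10 log2 and left 5 members with groups apart in place of 7. Same-numbered libraries did not pair (correlations of deviations 0.09, -0.17 and 0.06, not every library closest to its own number), and with the replicate block 0 members were called and Odc1 was at 1.89. Counts of 55 to 175 per library limit Srm, Paox and Smox.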

Other observations

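Of the related genes with too few counts to test, Apip, of methionine salvage, had 3, 3 and 4 counts in DHT and 2, 2 and 70 in control, so control replicate 3 held nearly all of them. Arg1, the cytosolic arginase, had 11, 9 and 2 counts in DHT and 2, 0 and 0 in control. Otc, Oaz3 and Satl1 had 0 counts in all 6 libraries. AW146154, a transcript with 92.2% identity to part of Odc1, had 124, 155 and 110 counts in DHT and 203, 211 and 217 in control. Its difference between the groups had the opposite direction to that of Odc1 (log2 fold change -0.51 ± 0.20, edgeR adjusted p = 0.17).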
